A study of Homo sapiens with 8 samples.

Results

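The genes described here encode 10 enzymes of mitochondrial fatty acid oxidation, namely CPT1A, CPT2, ACADVL, ACADM, ACADS, HADHA, HADHB, HADH, ETFA and ETFDH. They were chosen by name, with earlier results of these data known. Each was measured by the probe set that the platform annotation pairs with that symbol alone, and where a gene had several such probe sets the one with the highest mean over the 8 arrays would have been taken. All 10 had exactly 1, so 10 of the 17958 genes on the array with a probe set of their own are described. A further probe set shared by CPT2 and a neighbouring gene was not used.

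The samples were KMH2 cells given glucosamine for 24 h (3 arrays), Ramos cells (2 arrays) and untreated KMH2 control cells (3 arrays). KMH2 is a human line from Hodgkin lymphoma, a tumour of B-cell origin that has lost much of the B-cell program, and Ramos is a human line from Burkitt lymphoma, a tumour of germinal centre B cells. All cells grew in RPMI medium with 10% heat-inactivated serum and antibiotics, and no genotype is given beyond the line. The KMH2 replicates are called biological in the series' design text. For the Ramos pair no source used here says whether the cultures were separate, so p-values for that line may measure technical spread. Labels call both Ramos arrays control, whereas the design text places 1 of them after glucosamine, so Ramos is treated as a cell line only and no treatment is assigned to either array. Glucosamine is an amino sugar that cells phosphorylate and feed into the hexosamine pathway. The sources used here do not give its dose.

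Beta-oxidation shortens fatty acids inside mitochondria and passes their electrons to the respiratory chain. Long-chain acyl groups enter as carnitine esters made by CPT1 on the outer membrane, and CPT2 on the inner membrane turns them back into acyl-CoA. Acyl-CoA dehydrogenases of graded chain-length preference, the trifunctional protein and the short-chain hydroxyacyl-CoA dehydrogenase then run the cycle. The electron transfer flavoprotein, ETF, collects electrons from the dehydrogenases and hands them to ETFDH at the inner membrane.

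The starts of 4 of these genes are shown, those of the 3 genes that were lower after glucosamine (CPT2, ACADM and HADH) and that of HADHA, which did not pass the test. HADHA and HADHB start 307 bases apart on opposite strands, and their windows share 194 bases. Each window runs from 250 bases before the annotated start to 50 after it, on the strand of the gene, in RefSeq's GRCh38.p14. CPT2 lies at chr1:53196574-53196873 (+), ACADM at chr1:75724459-75724758 (+), HADH at chr4:107989639-107989938 (+) and HADHA at chr2:26244583-26244882 (-). Capitals mark letters that match a searched motif on either strand.
CPT2: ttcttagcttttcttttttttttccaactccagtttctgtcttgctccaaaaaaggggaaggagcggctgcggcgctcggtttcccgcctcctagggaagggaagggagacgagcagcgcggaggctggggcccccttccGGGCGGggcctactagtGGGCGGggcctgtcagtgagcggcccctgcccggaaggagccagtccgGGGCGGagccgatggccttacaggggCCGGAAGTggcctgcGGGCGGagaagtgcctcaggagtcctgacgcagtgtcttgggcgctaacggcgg
ACADM: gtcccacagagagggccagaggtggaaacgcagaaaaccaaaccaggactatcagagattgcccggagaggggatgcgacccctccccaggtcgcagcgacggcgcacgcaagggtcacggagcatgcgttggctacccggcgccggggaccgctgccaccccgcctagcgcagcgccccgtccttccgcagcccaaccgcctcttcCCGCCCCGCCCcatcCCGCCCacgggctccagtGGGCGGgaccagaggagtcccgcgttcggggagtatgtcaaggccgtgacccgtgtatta
HADH: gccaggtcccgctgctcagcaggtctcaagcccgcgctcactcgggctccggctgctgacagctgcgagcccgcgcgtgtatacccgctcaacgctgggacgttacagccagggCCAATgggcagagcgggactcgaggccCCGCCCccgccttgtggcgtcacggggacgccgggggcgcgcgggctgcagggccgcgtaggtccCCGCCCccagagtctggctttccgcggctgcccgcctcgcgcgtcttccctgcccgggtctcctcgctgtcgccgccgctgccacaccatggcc
HADHA: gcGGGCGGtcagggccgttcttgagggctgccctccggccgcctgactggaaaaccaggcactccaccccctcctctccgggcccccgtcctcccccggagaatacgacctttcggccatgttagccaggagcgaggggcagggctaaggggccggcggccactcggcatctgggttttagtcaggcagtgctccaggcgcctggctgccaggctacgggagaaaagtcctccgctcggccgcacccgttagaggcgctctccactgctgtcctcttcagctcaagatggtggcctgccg

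RefSeq windows were found for 9 of the 10 genes. For HADH and ACADVL, which have 2 listed starts each, the one nearest the annotated start of the gene was used. Both strands were searched for 8 short motifs, and overlapping matches were counted. The SP1 box (GGGCGG) stood in 7 of the 9 windows and in 44.9% of 35097 promoter windows of the same length. CPT2 had 4 matches to it, ACADM 4, HADH 2 and HADHA 1. The HADHA match lies in the bases shared with the HADHB window and was counted in both. The 7 windows with an SP1 box are therefore not all separate, which limits the comparison with 44.9%. The CCAAT box (CCAAT) stood in 2 of the 9, HADH and ETFA, against 34.6% of all windows, and the ETS site bound by GABPA (CCGGAAGT) only in CPT2 among the 9, against 4.14%. No match was found in the 9 windows for the E-box (CACGTG, 7.25% of all windows), the consensus site of NRF1 (1.24%), the ATF4 composite site (TGATGNAAT, 0.992%), the ERR element (TCAAGGTCA, 0.353%) or the PPAR response element of repeated half-sites (0.0228%). The CPT2, ACADM, HADH and HADHA windows were 65.0%, 68.7%, 74.3% and 67.7% G or C, against a median of 58.7% over all windows. These matches describe letters only.

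Values are log2 signals per probe set, and the array medians lay between 5.62 and 5.68. Signals are compared between arrays for the same gene, never between genes. In these bulk cultures less RNA per cell and fewer cells of a kind cannot be told apart. The line labels were checked against marker genes. Ramos arrays carried the B-cell genes MS4A1 (11.04 and 10.83) and CD79A (11.78 and 11.81), against 3.55 to 3.82 and 5.72 to 5.78 in KMH2 control. The Hodgkin marker TNFRSF8, which encodes CD30, was at 7.95 to 8.08 in KMH2 glucosamine, 6.10 and 5.63 in Ramos and 8.65 to 8.85 in KMH2 control. All 4 Hodgkin markers were lower after glucosamine. Of the markers of other cells, 1 of 5 T-cell genes was lower after glucosamine (summed linear signal 1080 to 1230 in KMH2 glucosamine and 1370 to 1450 in KMH2 control). Of 5 myeloid genes 1 was higher and 1 lower (525 to 568 and 528 to 578), 2 of 5 fibroblast genes were lower (663 to 675 and 1020 to 1040), and 0 of 2 erythroid genes passed limma's test, also 0 at an unadjusted p under 0.05 (26.4 to 28.6 and 24.9 to 28.1). The lowest value of any probe set was 1.935, so no marker could be at 0, and a low signal does not show that a marker was expressed. The erythroid genes HBB and AHSP lay below every array's median. The part of these marker shifts in the results below was not tested.

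**Figure D1:**
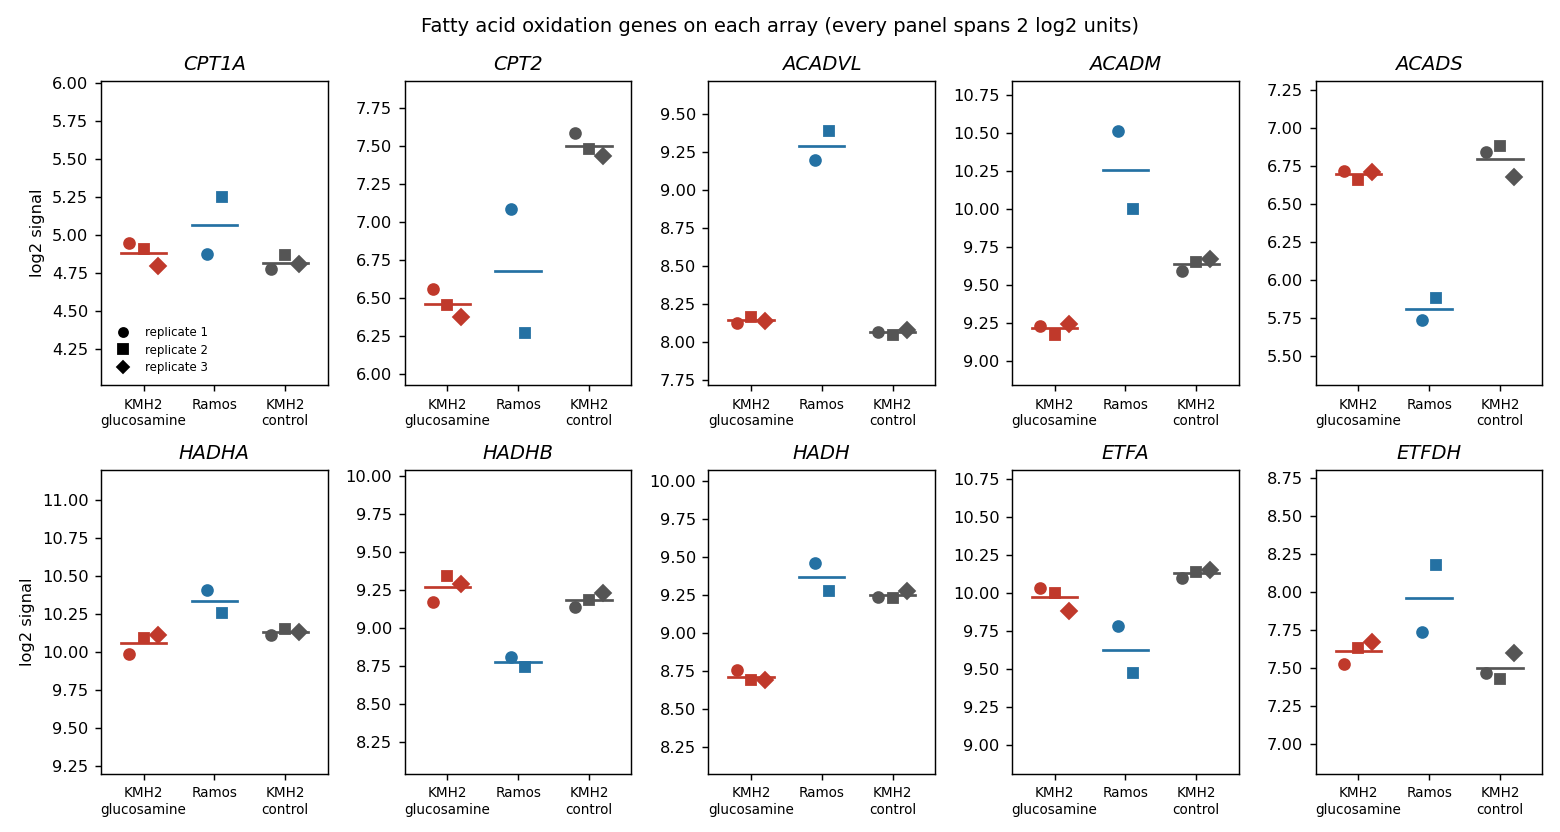
Log2 signal of each of the 10 genes (vertical axis, every panel spanning 2 log2 units) on each array, with KMH2 glucosamine, Ramos and KMH2 control from left to right, points for replicates and bars for group means. CPT2, ACADM and HADH sit lower on all 3 glucosamine arrays than on all 3 control arrays, and the Ramos arrays lie 0.82 apart in CPT2.

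The comparison of glucosamine with control cells addressed the response of KMH2 cells to the sugar. After 24 h, 3 of the 10 genes were lower, CPT2, HADH and ACADM, 0 were higher (also 0 at an unadjusted p under 0.05) and 7 did not pass the test. The steepest fall was that of CPT2, whose level was 2.05-fold lower. HADH was 1.45-fold lower and ACADM 1.34-fold lower. The test was limma's moderated test on the 6 KMH2 arrays, with Benjamini-Hochberg adjustment over 19181 probe sets and a threshold of 0.05. Over all those probe sets 25.8% were called, 13.9% as lower and 11.9% as higher, and 3 of 10 called is close to that share. Without dim probe sets, those with a mean signal under the median of tested probe sets, 4765 were called, against 4956 with all tested. The share among brighter probe sets was therefore above 25.8%, and all of the 10 genes but CPT1A are among those. The median difference was -0.09 over the 10 genes and 0.01 over all probe sets.

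At the entry step CPT1A and CPT2 gave different results. CPT1A encodes the regulated carnitine palmitoyltransferase of the outer membrane. It had log2 signals of 4.95, 4.91 and 4.80 in KMH2 glucosamine and 4.78, 4.87 and 4.81 in KMH2 control. The groups overlapped, with a difference of 0.07 and a 95% confidence interval from -0.07 to 0.20 (limma adjusted p = 0.478). These signals lie below every array's median, where background of unknown size can hide a fall. CPT2, the inner-membrane enzyme whose start is printed above, had 6.56, 6.45 and 6.37 in KMH2 glucosamine, against 7.58, 7.48 and 7.43 in KMH2 control. All glucosamine arrays lay below all control arrays, and CPT2 fell by 1.04 ± 0.07 on the log2 scale (SE, n = 3 each; limma adjusted p = 6.34e-05). Whether the CPT1A and CPT2 responses differ was not tested.

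Among the acyl-CoA dehydrogenases, which open each round of the cycle, the medium-chain enzyme fell. ACADM had 9.23, 9.17 and 9.24 in KMH2 glucosamine, against 9.59, 9.65 and 9.67 in KMH2 control. The groups did not overlap, and ACADM fell by 0.42 ± 0.05 (SE; limma adjusted p = 0.000811). That call was lost when the Ramos arrays shared the estimate of spread (adjusted p = 0.0575) (its alternatives ran from 0.000277 to 0.0575). ACADVL, the very-long-chain enzyme of the inner membrane, had 8.13, 8.17 and 8.14 in KMH2 glucosamine and 8.07, 8.05 and 8.08 in KMH2 control. The glucosamine arrays were all above the control arrays, but by only 0.08 (95% confidence interval -0.03 to 0.19, adjusted p = 0.289 by limma). ACADS, the short-chain enzyme, had 6.72, 6.66 and 6.71 in KMH2 glucosamine and 6.84, 6.88 and 6.68 in KMH2 control. Those groups overlapped, with a difference of -0.11 (95% confidence interval -0.25 to 0.04, adjusted p = 0.291 by limma).

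The trifunctional protein, which carries out the later steps of the cycle on long chains, is built from the products of HADHA and HADHB, and neither passed the test. HADHA had 9.99, 10.09 and 10.11 in KMH2 glucosamine and 10.11, 10.15 and 10.13 in KMH2 control, a difference of -0.07 (95% confidence interval -0.19 to 0.06). HADHB had 9.17, 9.34 and 9.29 in KMH2 glucosamine and 9.14, 9.18 and 9.23 in KMH2 control, a difference of 0.08 (95% confidence interval -0.06 to 0.23). Intervals of both genes leave out a fall of the size seen in CPT2. HADH, the dehydrogenase for short hydroxyacyl-CoA chains, stood apart from them, with 8.76, 8.69 and 8.69 in KMH2 glucosamine, against 9.24, 9.23 and 9.28 in KMH2 control. Its groups were separated by more than their own spread, and HADH fell by 0.53 ± 0.05 (SE, n = 3 each; limma adjusted p = 0.000249).

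Downstream of the dehydrogenases, ETFA, the alpha subunit of ETF, had 10.03, 10.00 and 9.88 in KMH2 glucosamine and 10.10, 10.14 and 10.15 in KMH2 control. The arrays did not overlap, yet the difference of -0.16 did not pass (95% confidence interval -0.29 to -0.03, adjusted p = 0.0772 by limma). It passed without KMH2 glucosamine replicate 1 (0.0455), without replicate 1 of both KMH2 groups (0.0474), without dim probe sets (0.0418) and with an intensity trend (0.039), over a range of 0.039 to 0.294. ETFDH, the ubiquinone oxidoreductase that receives electrons from ETF, had 7.53, 7.63 and 7.67 in KMH2 glucosamine and 7.47, 7.43 and 7.60 in KMH2 control. Its groups overlapped, with a difference of 0.11 (95% confidence interval -0.04 to 0.26). Over the 10 genes the glucosamine arrays lay outside the control range in 6, against 40.9% of all probe sets. HADHA is among the 6, with a margin under the printed digits.

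**Figure D2:**
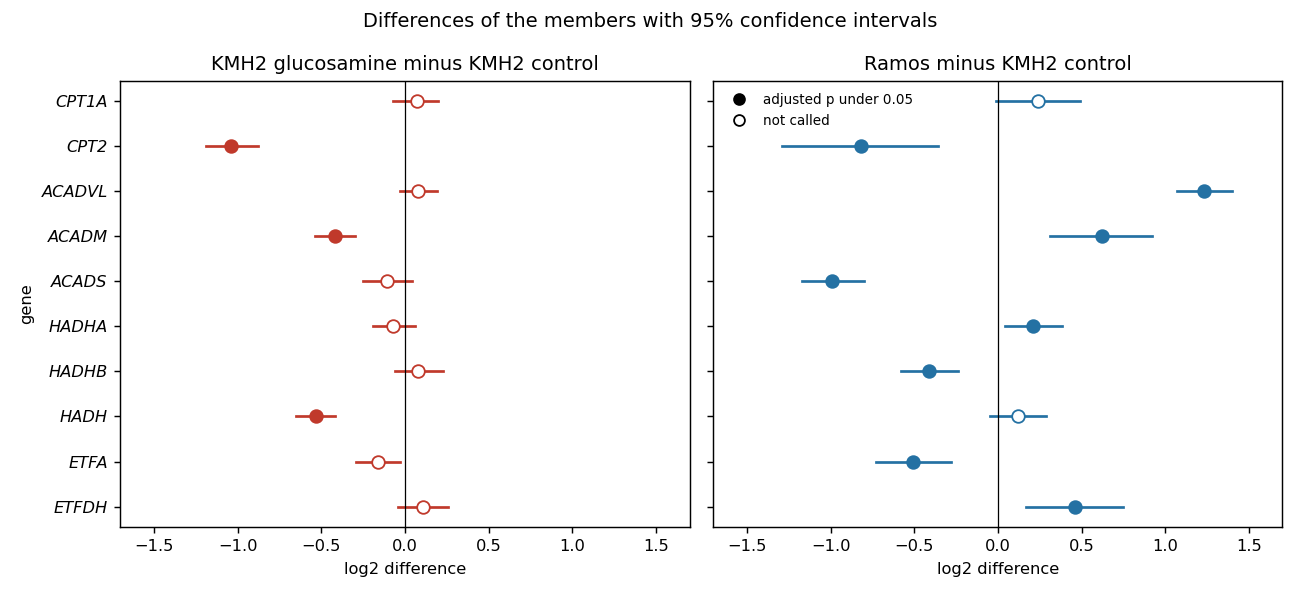
Log2 difference (horizontal axis) of the 10 genes (vertical axis) for KMH2 glucosamine minus KMH2 control and for Ramos minus KMH2 control, with 95% confidence intervals; filled points have an adjusted p under 0.05. After glucosamine only CPT2, ACADM and HADH are filled, all on the left, whereas in Ramos 4 genes are filled on each side.

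The comparison of Ramos with KMH2 control cells set the 2 arrays of the Burkitt line against the untreated Hodgkin line. As the design text places 1 Ramos array after glucosamine, a treatment of that array cannot be told apart from a difference between lines. The p-values may measure technical spread, as said above. Ramos had higher ACADVL, ACADM, ETFDH and HADHA and lower ACADS, CPT2, ETFA and HADHB, while CPT1A and HADH did not pass. Among the dehydrogenases ACADVL was 2.35-fold higher and ACADS 1.98-fold lower in Ramos. The share called, 8 of 10, stood beside 43.8% of all probe sets, with 22.7% called higher and 21.2% lower. Without dim probe sets 6136 were called, against 8408 with all tested, so brighter probe sets had a share above 43.8%. Both Ramos arrays lay outside the KMH2 control range in all 10 genes, against 64.1% of probe sets. For HADH the margin was under the printed digits, and the nearest CPT1A arrays were at 4.88 in Ramos and 4.87 in KMH2 control. The count was 9 with quantile normalization and with arrays centred on their median. The fit used all 8 arrays in 3 groups, and its control arrays are those of the glucosamine comparison. Of the 4 genes called higher, 2 remained without KMH2 control replicate 1, 2 without KMH2 control replicate 2, and 2 when the glucosamine arrays were left out, HADHA and ETFDH being lost each time. Where 1 Ramos array is left out below, the remaining array is assumed to vary like the other groups, since all of the spread then comes from the KMH2 arrays. Such values describe a single Ramos array and do not test the line.

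The acyl-CoA dehydrogenases went both ways. ACADVL had 9.20 and 9.39 in Ramos, against 8.07, 8.05 and 8.08 in KMH2 control, a difference of 1.23 ± 0.07 (SE, n = 2 and 3; limma adjusted p = 2.74e-06). ACADM had 10.51 and 10.00 in Ramos, against 9.59, 9.65 and 9.67 in KMH2 control. Both Ramos arrays were higher, but they differed from each other, so the difference of 0.62 ± 0.13 (SE; limma adjusted p = 0.00534) was 0.36 without Ramos replicate 1. ACADS had 5.74 and 5.88 in Ramos, against 6.84, 6.88 and 6.68 in KMH2 control. It was lower on both Ramos arrays, by a difference of -0.99 ± 0.08 (SE; limma adjusted p = 2.07e-05).

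At the entry step CPT2 had 7.08 and 6.27 in Ramos, against 7.58, 7.48 and 7.43 in KMH2 control. The Ramos arrays were both lower and lay far apart. The difference was -0.82 ± 0.20 (SE; limma adjusted p = 0.0109), and it was -1.23 without Ramos replicate 1 and -0.41 without Ramos replicate 2. CPT1A had 4.88 and 5.25 in Ramos and 4.78, 4.87 and 4.81 in KMH2 control, a difference of 0.24 (95% confidence interval -0.01 to 0.49, limma adjusted p = 0.108). Without Ramos replicate 1 the difference was 0.43 (adjusted p = 0.00277, with the spread of the KMH2 arrays alone), and over its alternatives the adjusted p ran from 0.00277 to 0.609.

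The paired genes of the trifunctional protein went opposite ways in Ramos. HADHB had 8.81 and 8.74 in Ramos, against 9.14, 9.18 and 9.23 in KMH2 control, a difference of -0.41 ± 0.07 (SE; limma adjusted p = 0.00235). HADHA had 10.41 and 10.26 in Ramos, against 10.11, 10.15 and 10.13 in KMH2 control, a difference of 0.21 ± 0.07 (SE; limma adjusted p = 0.0495). HADHA was lost in 8 of 11 alternatives, over a range of 0.0167 to 0.2, and its difference was 0.13 without Ramos replicate 1. HADH had 9.46 and 9.28 in Ramos and 9.24, 9.23 and 9.28 in KMH2 control, a difference of 0.12 (95% confidence interval -0.05 to 0.29). Without Ramos replicate 2 the difference was 0.21 (limma adjusted p = 0.0412, with the spread of the KMH2 arrays alone), and over its alternatives the adjusted p ran from 0.0412 to 0.741.

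In the electron transfer pair, ETFA had 9.78 and 9.47 in Ramos, against 10.10, 10.14 and 10.15 in KMH2 control, a difference of -0.51 ± 0.10 (SE; limma adjusted p = 0.00307). ETFDH had 7.74 and 8.18 in Ramos, against 7.47, 7.43 and 7.60 in KMH2 control, a difference of 0.46 ± 0.13 (SE; limma adjusted p = 0.0189). Without Ramos replicate 2 the ETFDH difference was 0.24 and lost its call (0.0715, with the spread of the KMH2 arrays alone). Its other losses were without KMH2 control replicate 1 (0.0551), without KMH2 control replicate 2 (0.0631) and in the fit of Ramos and KMH2 control alone (0.0571), over a range of 0.000325 (without Ramos replicate 1) to 0.0715. Within Ramos, replicate 2 lay below replicate 1 in 6 of the 10 genes, by 0.82 in CPT2 and 0.51 in ACADM, and above it in the other 4. Over all tested probe sets replicate 2 was the lower in 51.8%, so 6 of 10 is near that share.

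Genes around the cycle were described in 9 lists of 96 genes, of which 84 had a probe set of their own. The lists, too, were chosen with earlier results of these data known, so their called shares are descriptions only. Of these 84, 7 were higher and 27 lower after glucosamine, with 50 not passing, a called share of 40.5% beside 25.8% of all probe sets. As brighter probe sets had a share above 25.8%, no excess of these lists is claimed. Among other matrix enzymes of fatty acid oxidation 8 of 13 fell, 1 rose and 4 did not pass (69.2% called), with a median of -0.34. ACAD9, an acyl-CoA dehydrogenase also needed for building respiratory complex I, fell by 1.24 ± 0.12 (SE; limma adjusted p = 0.000275), a call lost when the Ramos arrays shared the estimate of spread (0.11; alternatives from 5.59e-05 to 0.11). ECI1 and DECR1, which handle the double bonds of unsaturated chains, fell by 0.64 and 0.55. Among partners of ETF and genes of flavin supply 3 of 7 fell and 4 did not pass (42.9% called), with a median of -0.05. ETFB, the beta subunit of ETF, fell by 0.86 ± 0.07 (SE; limma adjusted p = 0.000104), ETFRF1, a regulator of ETF, by 0.51, and FLAD1, the FAD synthase, by 0.47. The ETFB fall stands beside the difference of -0.16 in ETFA, and whether they differ was not tested.

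Other dehydrogenases that give electrons to ETF, which act in amino acid and choline breakdown, had 3 of 5 falling, 1 rising and 1 not passing (median -0.39). The share called was 80%, beside 25.8% of all probe sets (13.9% lower and 11.9% higher). ACADSB, the short and branched chain enzyme, fell by 1.74 ± 0.07 (SE), GCDH, the glutaryl-CoA enzyme, by 0.85 and IVD, the isovaleryl-CoA enzyme, by 0.39. The gene that rose was DMGDH, dimethylglycine dehydrogenase, by 0.28, at signals below every array's median. Peroxisomal oxidation had 5 of 14 falling and 9 not passing (35.7% called), with a median of -0.20. PHYH, of phytanic acid breakdown, fell by 0.51, PECR, an enoyl-CoA reductase, by 0.43 (lost with that shared spread, limma adjusted p = 0.0998) and ACAA1, the peroxisomal thiolase, by 0.39. Genes of acyl-CoA activation and the carnitine shuttle had 3 of 9 rising, 1 falling and 5 not passing (44.4% called), with a median of 0.18. CPT1C, a neuronal relative of CPT1A, rose by 0.31 and ACSL1, an acyl-CoA synthetase, by 0.26, while its relative ACSL4 fell by 0.35. With the Ramos arrays sharing the spread CPT1C (limma adjusted p = 0.237) and ACSL1 (0.404) lost their calls, and CPT1C signals lie below every array's median, as those of CPT1A do.

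Genes that control the cycle passed in both directions, with 22.2% called in the malonyl-CoA and AMPK list and 35.7% in the regulators. The share over all probe sets was 25.8%. In the malonyl-CoA and AMPK list 1 of 9 rose, 1 fell and 7 did not pass (median 0.06). ACACA, which makes the malonyl-CoA that inhibits CPT1, fell by 0.38, and PRKAB2, a subunit of AMPK, rose by 0.50. Of 14 PPAR, ERR and PGC-1 regulators 1 rose, 4 fell and 9 did not pass (median -0.02). The coactivator genes PPARGC1B and PPRC1 fell by 0.36 and 0.29, and MED1, a Mediator subunit that binds nuclear receptors, rose by 0.21 (limma adjusted p = 0.0158). MED1 lost its call without KMH2 control replicate 2 (0.0615) or 3 (0.0597) or KMH2 glucosamine replicate 2 (0.052), in a range of 0.00528 to 0.0615. Of 6 other PPAR target genes 0 passed by limma (2 at an unadjusted p under 0.05, both lower; median -0.02). The nearest was UCP3 at -0.19 (limma adjusted p = 0.0709), with signals below every array's median. UCP3 passed with replicate numbers fitted as a block (0.046), without KMH2 glucosamine replicate 1 (0.0217) and without replicate 1 of both KMH2 groups (0.0393). Its limma adjusted p ran from 0.0217 to 0.187 over its alternatives. In the list for release of stored fatty acids 2 of 7 fell and 5 did not pass, with 28.6% called (median 0.06). The 2 were HILPDA, an inhibitor of lipolysis, at -0.47, and MGLL, which cleaves monoacylglycerol, at -0.37. HILPDA lost its call with the Ramos arrays sharing the spread (limma adjusted p = 0.459).

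**Figure D3:**
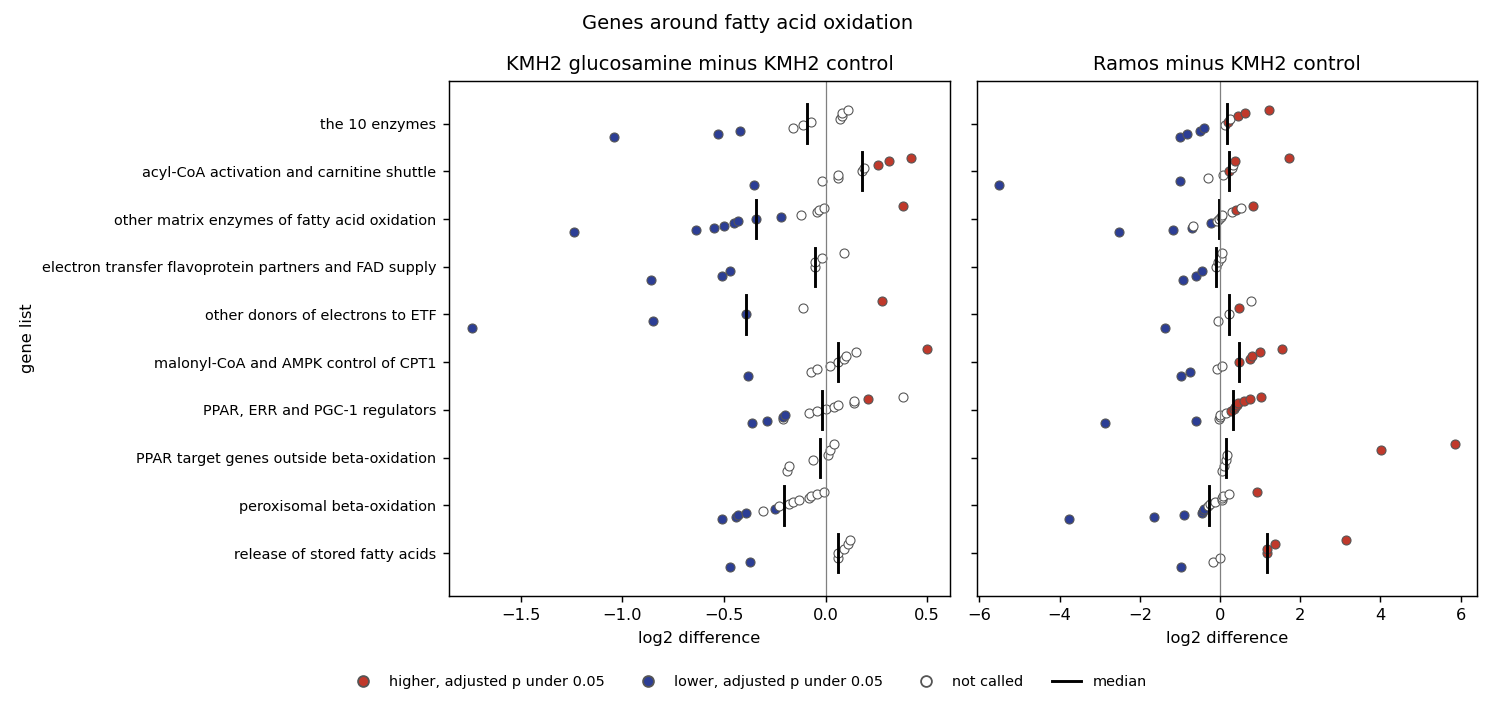
Log2 difference (horizontal axis) of each gene in the 10 enzymes and in 9 lists around them (rows), for KMH2 glucosamine minus KMH2 control and for Ramos minus KMH2 control, on separate scales; filled points have an adjusted p under 0.05 and bars are list medians. After glucosamine the matrix enzymes (median -0.34) and other ETF donors (median -0.39) lie mostly left of 0, and in Ramos the genes of fatty acid release lie mostly to the right (median 1.17).

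In Ramos 26 of the 84 were higher and 21 lower than in KMH2 control, a called share of 56.0% beside 43.8% of all probe sets. Brighter probe sets had a share above 43.8%, as said above, so no excess of these lists is claimed. Fatty acid release had 4 of 7 higher, 1 lower and 2 not passing (71.4% called), with a median of 1.17 beside 0.06 over all probe sets. Below, signals under every array's median were found in Ramos for SLC27A2, ABCD2, PHYH and PCCA and in KMH2 control for ABHD5, UCP2, PLIN2 and MLYCD. Background of unknown size enters those signals, so the differences of these 8 genes may understate the true ones. ABHD5, the activator of the triglyceride lipase, was at 7.31 and 7.02 in Ramos, against 4.02, 4.04 and 4.05 in KMH2 control. LIPE, hormone-sensitive lipase, was higher by 1.36 and PNPLA2, the triglyceride lipase itself, by 1.17. HILPDA, described above as an inhibitor of lipolysis, was also among the 4 called higher, by 1.18, with Ramos arrays at 8.87 and 7.21. Of 6 other PPAR targets 2 were higher and 4 did not pass (33.3% called, median 0.15). UCP2, an uncoupling protein relative, was at 11.36 and 10.88 in Ramos, against 5.18, 5.35 and 5.28 in KMH2 control, and PLIN2, a lipid droplet coat protein, was at 8.76 and 7.94, against 4.38, 4.32 and 4.30.

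In the uptake and carnitine shuttle list, genes on both sides passed. SLC27A2, a fatty acid transport protein, was at 4.29 and 3.89 in Ramos, against 9.55, 9.57 and 9.62 in KMH2 control. SLC25A20, the carrier that brings acylcarnitines to CPT2, was lower by a difference of -1.01, and ACSL1 was higher by 1.73. In that list 3 of 9 were higher, 2 lower and 4 did not pass (median 0.22), with 55.6% called beside 43.8% of all probe sets. Peroxisomal genes had 1 of 14 higher, 6 lower and 7 not passing (50% called, median -0.27). ABCD2, an importer of very long chains, was at -3.76, PHYH at -1.65 and HACL1, which cleaves hydroxyacyl-CoA, at -0.90. Other matrix enzymes had 2 of 13 higher, 4 lower and 7 not passing (median -0.03), and their 46.2% called is near the share of all probe sets. Among them PCCA, a propionyl-CoA carboxylase subunit, was at -2.52, ACAD10, a further member of the dehydrogenase family, at -0.71, and MMUT, a later enzyme of propionate disposal, at 0.81.

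Flavin and ETF partners had 3 of 7 lower and 4 not passing (median -0.11), with 42.9% called beside 43.8% of all probe sets. SLC52A2, a riboflavin transporter, was at -0.93, FLAD1 at -0.60 and ETFB at -0.44. ETFB lost its call without Ramos replicate 2 (-0.21, limma adjusted p = 0.103, with the spread of the KMH2 arrays alone) and without KMH2 control replicate 1 (0.0602) or 2 (0.083), and was -0.68 without Ramos replicate 1, with adjusted p from 0.000308 to 0.103 over its alternatives. Other ETF donors had 1 of 5 higher, 1 lower and 3 not passing (40% called, median 0.22), with ACAD8, the isobutyryl-CoA enzyme, at 0.47. ACADSB was at -1.38, and at -2.18 without Ramos replicate 1 and -0.59 without Ramos replicate 2. It lost its call without KMH2 control replicate 3 (limma adjusted p = 0.051, alternatives 3.01e-07 to 0.059). The malonyl-CoA and AMPK list had 5 of 9 higher, 2 lower and 2 not passing (77.8% called, median 0.48). MLYCD, which degrades malonyl-CoA, was at 1.54, ACACA at 0.79 and PRKAB1, an AMPK subunit, at -0.98. Regulators had 8 of 14 higher, 2 lower and 4 not passing (71.4% called, median 0.32). RXRA, the partner of PPARs on DNA, was at -2.86, NRF1, a regulator of nuclear genes for mitochondria, at 1.01 and PPARGC1B at 0.74.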

How the data were processed

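Per the labels' protocols, biotin-labelled total RNA was hybridised to whole-transcript Affymetrix arrays (HuGene-1_1-st-v1). The authors deposited log2 signals for 33297 probe sets; the log2 unit was read from the values (1.935 to 13.213), and how they were normalized is not given in the sources used here. No scanner files or detection calls were used, and the number of arrays limits the precision. The platform annotation, dated 2016 in its header, gave 19181 probe sets exactly 1 symbol, and these were tested. Another 2055 had several and 12061 were unlisted. Entrez identifiers of 19143 matched RefSeq, which changed 0 symbols.

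Differences were fitted with limma 3.58.1 in R 4.3.3 (lmFit, eBayes, two-sided, Benjamini-Hochberg, threshold 0.05), on the 6 KMH2 arrays for glucosamine and on all 8 for Ramos. The fit was tried on simulated data in which all groups had the same spread per probe set. That simulation does not cover the wider spread of the Ramos pair. Members and lists were chosen with earlier results of these data known. Named are all 10 members and, per list and comparison, up to 3 called genes with the smallest p, or the nearest 1 where none passed. Genes named beyond that rule are HILPDA in Ramos, DMGDH after glucosamine and those under other observations.

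Replicate numbers of the KMH2 groups were not paired in the main fit, and a replicate block was run as an alternative. Deviations from group means correlated at 0.46, 0.23 and 0.23 between arrays of the same number. Replicates 2 and 3 were as alike across numbers (0.25 and 0.18), and the other 4 pairs lay between -0.37 and -0.27. Alternatives were other scalings, filters and fits, a replicate block, and arrays left out. Marker sums add linear signals.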

Additional observations from a re-analysis of the deposited data

How the results depend on the processing

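After glucosamine, 0 members were called higher in every alternative run, and 2 to 4 lower. CPT2 and HADH kept their calls in all 14 alternatives. With the replicate block 3 members were lower, 39 pathway genes and 5748 probe sets were called, and only UCP3 among the genes named changed its call. When all 8 arrays shared the spread, 22 pathway genes and 2177 probe sets were called, instead of 34 and 4956. That fit takes in the spread of the Ramos pair (median SD 0.113, against 0.08 in KMH2 glucosamine and 0.067 in KMH2 control), and CPT1C (limma adjusted p = 0.237), ACSL1 (0.404), ACAD9 (0.11), PECR (0.0998) and HILPDA (0.459) lost their calls in it, besides ACADM. Those values are the highest over each gene's alternatives. In Ramos, members called higher numbered 2 in the fit of Ramos and KMH2 control arrays alone and 2 to 4 with an array left out, and 4 were lower in all 11 alternatives. In the fit of Ramos and KMH2 control alone ETFB (0.0756) and ACADSB (0.059) were lost. CPT1A could not be tested without dim probe sets, and no member had a second probe set of its own, so that alternative was not run. Where signals are low, as in CPT1A, background limits what can be seen.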

Other observations

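The Ramos arrays differed from each other widely in some genes around the cycle, named here after their values were seen. ACAD9 was at 9.43 on Ramos replicate 1 and 7.39 on replicate 2, HILPDA at 8.87 and 7.21, and ACADSB at 7.81 and 6.22. DMGDH was at 3.79 and 5.11, both below every array's median, and LIPA, the lysosomal acid lipase, at 8.72 and 9.78. Over all tested probe sets the median size of the gap was 0.16, and 7.94% lay more than 0.5 lower on replicate 2. No share was computed for probe sets well above on replicate 2 or for gaps as wide as those named. No treatment was assigned to either array, and the source of the gap was not tested.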
